A study of Homo sapiens with 4 samples.

Results

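The genes described here are 10 heat shock genes of the HSF1 response, HSPB1, HSPA1A, HSPA1B, HSPA8, HSPH1, HSPA4, DNAJB1, HSPD1, HSPE1 and BAG3, out of 63677 genes counted by RNA sequencing in HCT116 cells. They were chosen by name, each row of the count table being matched to its symbol through the Ensembl identifier, and all 10 were counted and passed the filter on low counts. HCT116 is a human colorectal cancer cell line. Of the 4 libraries, 2 came from cells transfected with an antisense oligonucleotide (ASO) complementary to tandem GAA repeats in RNA (anti-GAA ASO replicates 1 and 2) and 2 from cells transfected with a non-targeting control ASO (control ASO replicates 1 and 2). The labels give a transfection of 48 h, the methods a shorter one, and no untreated library was analysed here. In the wider study the anti-GAA ASO served to lower RNAs that carry GAA repeats and are bound by the replication factor ORC1. The question put to the heat shock genes was whether their RNA differed between the ASOs, as a readout of protein stress in the cytosol.

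Heat shock factor 1 (HSF1) is held inactive by chaperones in unstressed cells, and unfolded protein draws those chaperones away. Freed HSF1 forms trimers and binds heat shock elements, inverted repeats of the unit NGAAN, in the promoters of chaperone genes. Colorectal cancer lines, like many tumour lines, keep part of this programme on without heat. The 10 genes differ in how they depend on it, from HSPA1A, HSPA1B and DNAJB1, which are strongly heat-inducible, to HSPA8 and HSPA4, whose products are abundant constitutive chaperones.

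Promoter stretches with matches to heat shock elements were taken from RefSeq windows of 300 nt (250 nt before and 50 nt after each start, GRCh38.p14), and are shown because they are the sequence feature that HSF1 is known to bind. All 10 genes matched at least 1 window. A match to 3 alternating units, GAANNTTCNNGAA or TTCNNGAANNTTC, was present in 2 of the 10 genes, HSPD1 and HSPA8, in 2 of the members' 13 windows, and in 0.49% of the 35116 windows of all genes. Capitals mark the matched units and the bases between them, and each stretch is written 5′ to 3′ on the strand of its gene. The 2 HSPD1 matches overlap and together form 4 alternating units.
HSPD1, chr2:197500065-197500090, minus strand: gcattTTCTGGAAAGTTCtggaaccg
HSPD1, chr2:197500060-197500088, minus strand: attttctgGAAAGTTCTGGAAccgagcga
HSPA8, chr11:123062346-123062374, minus strand: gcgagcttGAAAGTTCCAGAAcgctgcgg
HSPA8, chr11:123062171-123062199, minus strand: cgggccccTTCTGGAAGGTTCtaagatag

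The shorter match to 2 units, GAANNTTC or TTCNNGAA, which also lies within every longer match, was present in 6 of the 10 genes, in 7 of their 13 windows, and in 13.5% of all windows. Besides HSPD1 and HSPA8 these were HSPB1, HSPA1A, HSPA1B and DNAJB1, with DNAJB1 holding more than 1. The paralogs HSPA1A and HSPA1B carried the same matched letters. Both motifs read on both strands, since the longer patterns are reverse complements of each other and each shorter pattern is its own reverse complement.
HSPB1, chr7:76302483-76302506, plus strand: taacgagaGAAGGTTCcagatgag
HSPA1A, chr6:31815429-31815452, plus strand: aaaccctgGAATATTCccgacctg
HSPA1B, chr6:31827625-31827648, plus strand: aacccctgGAATATTCccgacctg
DNAJB1, chr19:14518459-14518482, minus strand: gcggggcgGAAGGTTCtggagggg
DNAJB1, chr19:14518429-14518452, minus strand: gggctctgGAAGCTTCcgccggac
DNAJB1, second window, chr19:14517921-14517944, minus strand: ctcggccaGAAGCTTCtagcatgt
HSPH1, HSPA4, HSPE1 and BAG3 had no match in these windows. For both motifs no mismatch in a unit was allowed, so imperfect heat shock elements were not searched for. HSPE1 lies head to head with HSPD1, and the HSPD1 stretches above lie 289 to 319 nt before the RefSeq start of HSPE1, outside its window, and 50 to 80 nt before the start of the GENCODE gene.

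The anti-GAA ASO pairs with runs of GAA, so the members were also searched for such runs on the RNA strand. Their longest transcripts (GENCODE 44) held a longest run of 6 to 9 nt, and none held a run of at least 12 nt, against 2.54% of 14751 tested genes. Over the whole gene body, introns included, 0 of the 10 genes held a run of at least 12 nt, against 11.3% of tested genes. Runs of 9 nt stood in HSPA1A and HSPA1B alone, 1 in the exon of each, while 50.2% of tested genes held a run of at least 9 nt in the gene body and 20.1% in the longest transcript. The runs are shown in capitals beside the longest of HSP90B1, the gene of an endoplasmic reticulum HSP90 that is no member and is described further on.
HSPA1A, chr6:31817455-31817463, plus strand, exon: cggacAAGAAGAAGgtgct
HSPA1B, chr6:31829649-31829657, plus strand, exon: cggacAAGAAGAAGgttct
HSP90B1, chr12:103938424-103938438, plus strand, exon: tagagGAAGAAGAAGAAGAAaagaa
The coordinates are those of the capitals, with 5 nt of flank on each side, on GRCh38, while the counts were made on hg19.

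Total counts per library ran from 10538284 (anti-GAA ASO replicate 1) to 17894953 (anti-GAA ASO replicate 2), on 21368 to 23443 genes, and the 10 heat shock genes together took 0.625% and 0.572% of counts with the anti-GAA ASO and 0.643% and 0.487% with the control ASO. The line's epithelial markers EPCAM, KRT8, KRT18, CDH1 and CLDN4 were present in every library. Their summed level was 1279 to 1301 CPM, counts per TMM-scaled library size, in the anti-GAA libraries and 1588 to 1604 CPM in the controls. For 5 of 5 both anti-GAA libraries lay below both controls, as for 16.9% of all tested genes. The part of this difference in the results was not tested. Leukocyte markers summed to 0.354 to 0.848 CPM over all libraries with CD3E at 0, fibroblast markers to 10.1 to 14.6 CPM with COL1A2 and DCN at 0, and endothelial markers to 0.101 to 0.767 CPM with PECAM1 at 0.

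None of the 10 heat shock genes passed the test between the anti-GAA and the control ASO in the fit with the ASO as the only term. By edgeR's quasi-likelihood test 0 of 10 were past an adjusted p of 0.05 (adjusted p = 0.996 for each), where 0% of the 15116 tested genes were called. At an unadjusted p under 0.05 the members again gave 0, also by DESeq2, while 3.46% of all tested genes were lower and 1.02% higher with the anti-GAA ASO by edgeR. The fitted log2 fold change, anti-GAA over control, was above 0 in 7 of 10 members, against 51.6% of all tested genes, and its median was 0.17 over the members and 0.01 over all tested genes. With scaling to total counts, 6 of 10 members and 39.0% of all tested genes were above 0. In this fit all 10 confidence intervals included 0, and those of HSPA1A, HSPA1B, DNAJB1 and HSPE1 reached above 1 on the log2 scale. In bulk RNA a difference in the number of responding cells and a difference in RNA per cell cannot be told apart. The methods call the replicates duplicate experiments and do not say which steps were repeated. The p-values rest on the spread between these libraries, which the test estimates partly over all genes. A fit that adds the replicate number as a term gave a smaller SE and a smaller unadjusted p-value for each of the 10 members. None passed an adjusted p of 0.05 there either, and its values stand with the processing alternatives.

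**Figure D1:**
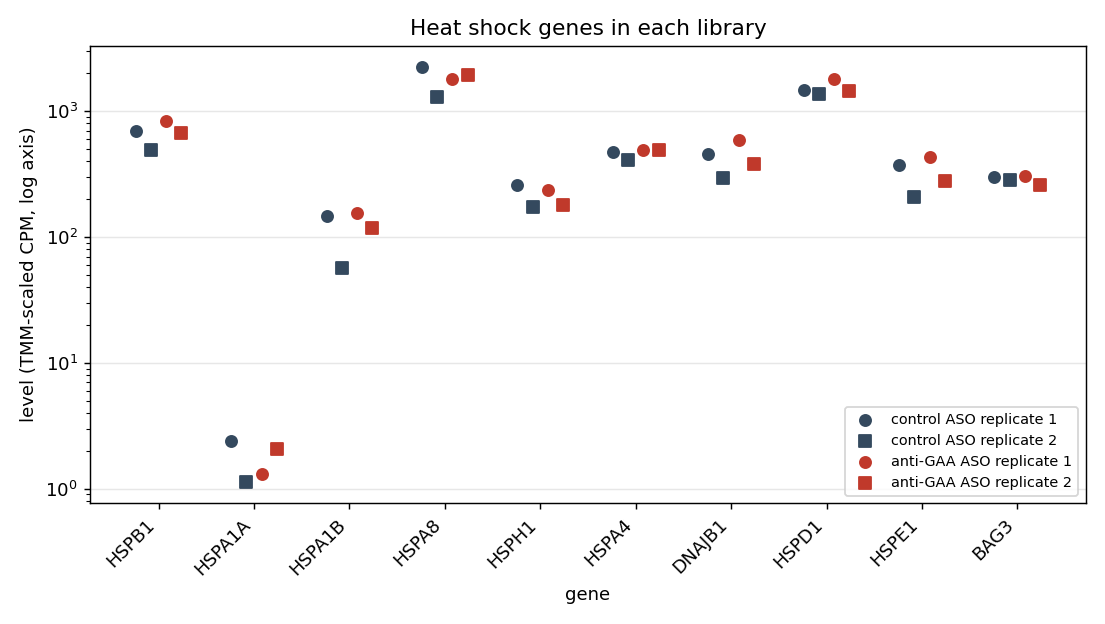
Level of each heat shock gene in the 4 libraries, in CPM scaled by TMM on a log axis, with 1 point per library (dark, control ASO; red, anti-GAA ASO; circles, replicate 1; squares, replicate 2). Control ASO replicate 2 is the lowest library for 9 of the 10 genes.

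Compared within a replicate number, 6 of 10 members were higher with the anti-GAA ASO in both pairs (HSPB1, HSPA1B, HSPA4, DNAJB1, HSPD1 and HSPE1), against 31.8% of all tested genes. None was lower in both, against 30.0% of tested genes, and 4 went opposite ways (HSPA1A, HSPA8, HSPH1 and BAG3). The median difference over the members was 0.07 between the replicate 1 libraries and 0.40 between the replicate 2 libraries, both on the log2 CPM scale with a prior count of 2. HSPA4 was the 1 gene of the 10 whose anti-GAA libraries both lay above both controls, against 15.5% of all tested genes.

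The fitted values moved with the replicate number and with single libraries. Control ASO replicate 2 held the lowest level of 9 of the 10 members, BAG3 being the exception, and anti-GAA ASO replicate 1 the highest of 7. All 10 members were higher in control ASO replicate 1 than in control ASO replicate 2, with a median difference of 0.60 on the log2 scale, and 8 of 10 were higher in anti-GAA ASO replicate 1 than in replicate 2, with a median of 0.31. In 9 of 10 members the 2 controls differed from each other by more than the fitted difference between ASOs. The shares of all tested genes with these orders are not given here. Over 15116 tested genes the deviations of same-numbered libraries from their group means correlated at r = 0.564, so shared shifts were not confined to the members. Without control ASO replicate 2 the median log2 fold change of the members was −0.07 with 4 of 10 above 0, and without control ASO replicate 1 it was 0.57 with 9 of 10 above 0. Each of these fits sets both anti-GAA replicates against 1 control, so the difference between replicate numbers enters them. The replicate 1 libraries alone, which leave out control ASO replicate 2, had 7 of 10 members higher with the anti-GAA ASO, against 7482 of 15116 tested genes. Without control ASO replicate 1 the log2 fold change was 1.25 for HSPA1B, 0.70 for DNAJB1 and 0.76 for HSPE1. Without control ASO replicate 2 the same genes were at −0.09, 0.09 and −0.06.

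HSPB1 (ENSG00000106211, chr7:76302673-76304295) encodes HSP27, a small heat shock protein that holds unfolding proteins in a refoldable state without using ATP. Its level was 841 and 668 CPM in anti-GAA ASO replicates 1 and 2, and 696 and 489 CPM in control ASO replicates 1 and 2, the order kept for every gene below. Each anti-GAA library was above the control of the same number, by 0.27 and 0.45 on the log2 scale, but the groups overlapped, because control ASO replicate 1 lay above anti-GAA ASO replicate 2. The fitted log2 fold change was 0.35 (SE 0.25, 95% confidence interval −0.23 to 0.93). The controls differed from each other by 0.51.

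A figure of the study names HSPB1 among the RNAs measured by RT-qPCR after the anti-GAA ASO, while the published list of cDNA primers holds a pair for HSP90B1 and none under the name HSPB1. The HSP90B1 pair, shown because the names differ by few letters, matched transcripts of HSP90B1 alone, with a product of 194 nt, and no listed pair matched a transcript of HSPB1. Which of these RNAs the RT-qPCR measured was not settled here.
HSP90B1 forward primer: aagcacaagcgtaccaaacg
HSP90B1 reverse primer: ataccctgaccgaagcgttg
In the libraries the HSP90B1 and HSPB1 values ran in opposite directions. HSP90B1 was at 610 and 939 CPM in the anti-GAA libraries and at 979 and 1169 CPM in the controls, so both anti-GAA libraries lay below both controls, as for 16.9% of all tested genes. Its log2 fold change was −0.47 (SE 0.26), with −0.68 and −0.32 in the replicate 1 and 2 libraries, and it did not pass the test either.

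HSPA1A and HSPA1B encode the same inducible HSP70 protein, the ATP-driven chaperone that rises most on heat, from neighbouring genes on chromosome 6. HSPA1A (ENSG00000204389, chr6:31815543-31817946) had 13 and 37 counts in the anti-GAA libraries and 37 and 19 in the controls, or 1.31, 2.08, 2.41 and 1.12 CPM. The highest and the lowest library were both controls, and the pairs went opposite ways, with −0.82 and 0.82. Its log2 fold change was −0.03 (SE 0.53, 95% confidence interval −1.28 to 1.23), the widest interval of a member beside the fewest counts.

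HSPA1B (ENSG00000204388, chr6:31827738-31830254) stood at 154 and 119 CPM in the anti-GAA libraries and at 146 and 57.0 CPM in the controls. Of its 4 libraries, 3 lay between 119 and 154 CPM, and control ASO replicate 2 was lower by itself. The pair differences were 0.08 and 1.06, and the fitted log2 fold change of 0.43 (SE 0.42, 95% confidence interval −0.56 to 1.42) was the largest of the members. The 2 controls differed by 1.36 on the same scale, more than the ASOs did. Of the 50-nt windows of HSPA1A, 75.1% also occur in HSPA1B, and HSPA1A took 0.845% to 1.93% of the counts of both genes. How reads were split between them is therefore uncertain. Only their sum, 1539 and 2151 counts in the anti-GAA libraries and 2276 and 985 counts in the controls, is free of that split. The sum would still lack shared reads if these were left uncounted, and their handling is not given.

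HSPA8 (ENSG00000109971, chr11:123057489-123063230) encodes HSC70, the constitutive HSP70 of the cytosol. Its level was 1816 and 1921 CPM in the anti-GAA libraries, and 2256 and 1292 CPM in the controls. Both anti-GAA libraries lay between the controls. The pairs gave −0.31 and 0.57 and the fit 0.07 (SE 0.29, 95% confidence interval −0.60 to 0.75). Of its 50-nt windows, 16.5% recur in other annotated genes, the most in the processed pseudogene HSPA8P1.

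HSPH1 and HSPA4 encode HSP110 proteins, which exchange nucleotide on HSP70 and slow aggregation. HSPH1 (ENSG00000120694, chr13:31134973-31162388), the heat-inducible one, was at 235 and 181 CPM in the anti-GAA libraries and at 258 and 172 CPM in the controls. Here too the anti-GAA libraries lay between the controls, and the log2 fold change was −0.05 (SE 0.26, 95% confidence interval −0.67 to 0.57). HSPA4 (ENSG00000170606, chr5:133052013-133106449) was at 494 and 490 CPM in the anti-GAA libraries and at 476 and 410 CPM in the controls. The groups did not overlap, yet the nearest libraries were 490 and 476 CPM, and the log2 fold change of 0.15 (SE 0.19, 95% confidence interval −0.30 to 0.60) was smaller than the difference of 0.21 between the controls.

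DNAJB1 (ENSG00000132002, chr19:14514769-14560391) encodes HSP40, the J-protein that hands clients to HSP70 and helps return HSF1 to its inactive form. It was at 585 and 381 CPM in the anti-GAA libraries and at 458 and 296 CPM in the controls. The pairs were nearly alike, at 0.35 and 0.36, and so were the differences between replicates of 1 ASO, 0.62 with the anti-GAA and 0.63 with the control ASO. The fitted log2 fold change was 0.36 (SE 0.30, 95% confidence interval −0.35 to 1.07). DNAJB1 shares 525 exon bases with TECR on the opposite strand, and the strand setting of the counting is not given in the sources used here.

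HSPD1 and HSPE1 encode HSP60 and HSP10, the barrel and lid of the mitochondrial chaperonin, and are transcribed in opposite directions from a shared promoter region. HSPD1 (ENSG00000144381, chr2:197486584-197516737) was at 1789 and 1456 CPM in the anti-GAA libraries and at 1475 and 1365 CPM in the controls. The log2 fold change was 0.19 (SE 0.20, 95% confidence interval −0.29 to 0.68), with 0.28 and 0.09 in the pairs. HSPE1 (ENSG00000115541, chr2:197500140-197503449) was at 431 and 280 CPM in the anti-GAA libraries and at 372 and 208 CPM in the controls. Its log2 fold change was 0.29 (SE 0.33, 95% confidence interval −0.50 to 1.08), with 0.21 and 0.43 in the pairs. The larger of the HSPD1 differences was between the replicate 1 libraries and the larger of the HSPE1 differences between the replicate 2 libraries. HSPE1 shares 192 exon bases with the readthrough gene HSPE1-MOB4, which was listed at 0 in all 4 libraries, and 135 exon bases with HSPD1 on the opposite strand. Of the 50-nt windows, 27.3% of HSPE1 and 10.6% of HSPD1 also occur in other annotated genes. How reads that match several genes were counted is not given.

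BAG3 (ENSG00000151929, chr10:119651380-119677819) encodes a nucleotide exchange factor that steers HSP70 clients to autophagy and is among the HSF1 targets that respond to proteasome inhibition. Its level varied least among the members, at 304 and 258 CPM in the anti-GAA libraries and at 300 and 285 CPM in the controls. Its libraries differed by at most 1.18-fold. The log2 fold change was −0.06 (SE 0.19, 95% confidence interval −0.52 to 0.40), with 0.02 and −0.14 in the pairs.

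**Figure D2:**
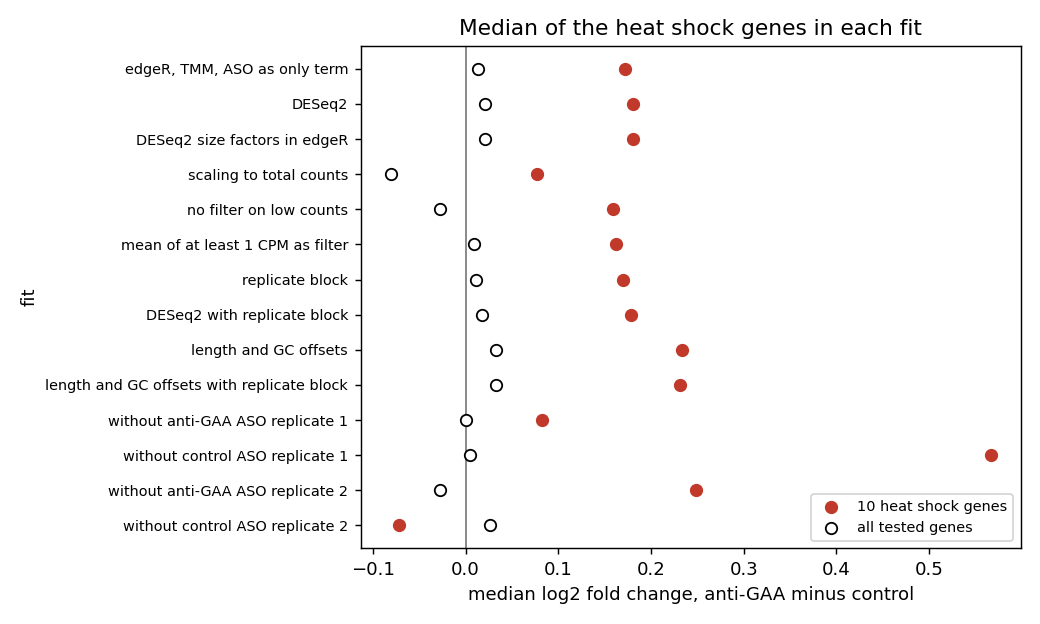
Median log2 fold change, anti-GAA minus control, of the 10 heat shock genes (red) and of all tested genes (open circles) in each fit, listed by what was altered in it. The members' median is 0.17 with the ASO as the only term, −0.07 without control ASO replicate 2 and 0.57 without control ASO replicate 1, while the median of all tested genes stays between −0.08 and 0.03.

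Levels can be set against each other only per length. Divided by the length of the longest transcript, the mean over the 4 libraries was 790 ± 173 CPM per kb for HSPA8 (SD, n = 4), 463 ± 99.2 for HSPB1, 461 ± 141 for HSPE1 and 309 ± 37.5 for HSPD1. A middle group followed with BAG3 at 112 ± 8.10, DNAJB1 at 101 ± 28.7 and HSPA4 at 97.9 ± 8.15 CPM per kb. HSPA1B (47.3 ± 17.5) and HSPH1 (40.3 ± 7.91) were lower, and HSPA1A was last at 0.721 ± 0.256 CPM per kb. On this length the ranges of mean ± SD overlapped for HSPB1 and HSPE1, and for HSPE1 and HSPD1. They also overlapped within the middle group, and for HSPA1B and HSPH1. All genes were measured in the same libraries, and differences between genes within a library were not tested. This order depends on the length used. The places of HSPA1A and HSPA1B may also depend on how reads from shared sequence were counted, which is not given. Of their 50-nt windows, 75.1% and 73.6% also occur in other genes. With the mean transcript length HSPA8 was at 1508, HSPB1 at 971, HSPD1 at 652 and HSPE1 at 558 CPM per kb, followed by HSPA4 at 233, DNAJB1 at 226, BAG3 at 155, HSPH1 at 69.7, HSPA1B at 47.3 and HSPA1A at 0.803, so that BAG3 lay below HSPA4 and DNAJB1, and HSPH1 lay above HSPA1B.

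The 3 genes whose levels followed HSPB1 most closely, of 8893 genes at a mean level of 10 CPM or more, were PSMC2 at a distance of 0.03, LSM2 at 0.04 and BAG2 at 0.06, the Euclidean distance of centred log2 CPM over 4 libraries. PSMC2 encodes an ATPase of the proteasome cap, LSM2 a ring protein that binds U6 snRNA, and BAG2 an HSP70 cochaperone. PSMC2 was at 369 and 300 CPM in the anti-GAA libraries and at 311 and 221 CPM in the controls. The nearest member was DNAJB1, at rank 353. These ranks are a description over 4 points.

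The transcription factors HSF1 and HSF2 themselves did not pass the test. HSF1 was at 37.5 and 27.2 CPM in the anti-GAA libraries and at 28.5 and 24.2 CPM in the controls (log2 fold change 0.29, SE 0.24). HSF2, which can form mixed trimers with HSF1, was at 28.5 and 29.7 CPM against 28.0 and 22.9 CPM (0.19, SE 0.21). Of 5 factors and regulators 4 were tested, 3 were above 0, against 51.6% of all tested genes, and the median was 0.17. The smallest p was that of IER5, an immediate-early gene whose product promotes HSF1 activity, at a log2 fold change of −0.35.

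Of 20 other genes that HSF1 is known to drive, 18 were tested, 0 passed the adjusted threshold, 11 were above 0 and 7 below (9 and 9 with scaling to total counts), and their median log2 fold change was 0.07 against 0.01 for all tested genes. Of all tested genes 51.6% were above 0 (39.0% with scaling to total counts). At an unadjusted p under 0.05, 1 of the 18 was higher, against 1.02% of all tested genes. It was SQSTM1, which encodes the autophagy receptor p62 and is also a target of other stress factors. SQSTM1 was at 48.9 and 39.9 CPM in the anti-GAA libraries and at 34.1 and 20.7 CPM in the controls (log2 fold change 0.70, SE 0.29, adjusted p = 0.996). Both anti-GAA libraries lay above both controls, as for 15.5% of all tested genes. The call of SQSTM1 changed with the replicate number as a term, as given with the processing alternatives. CACYBP, which encodes a cochaperone-like protein of the ubiquitin pathway, came next at 447 and 461 CPM against 384 and 346 CPM (0.32, SE 0.19). HSPA6, an HSP70 gene that is nearly silent without strong stress, had 1 and 2 counts with the anti-GAA ASO and 0 in both controls, too few to test.

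The lists of partner chaperones gave no call at an adjusted p under 0.05 either. Of 16 HSP70 cochaperones 15 were tested, with 10 above 0 (7 with scaling to total counts) and a median of 0.06, and the smallest p were those of the J-protein genes DNAJB2 (−0.50) and DNAJA4 (−0.59). For this list and the next, the share of all tested genes above 0 was 51.6% (39.0% with scaling to total counts). All 8 subunits of CCT, the cytosolic chaperonin that folds actin and tubulin, were above 0, though 5 of 8 with scaling to total counts, with a median of 0.18 and values from 6.89e-05 (CCT4) to 0.21 (CCT7). The smallest p among them were those of CCT6A (0.18) and CCT7 (0.21). The 8 values were not of 1 sign in each pair, since 4 of 8 were above 0 in the replicate 1 libraries and 8 of 8 in the replicate 2 libraries.

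Of 10 genes of mitochondrial folding and proteolysis 8 were above 0 (6 with scaling to total counts), against 51.6% (39.0%) of all tested genes. The median was 0.14, and the list was led by the protease gene LONP1 (0.36) and by GRPEL1, which encodes a nucleotide exchange factor (0.27). The list of further HSP70 and small heat shock genes had a median below 0. It shares HSPA4L, HSPB8, HSPA6 and CRYAB with the HSF1 targets above and HSPA9 with the mitochondrial list, while DNAJA1 and DNAJB4 stand among both the HSF1 targets and the cochaperones. Of 17 counted genes 9 were tested, 3 were above 0, and the median was −0.15. HSPA4L (−0.35) and HSPB8 (−0.33) had the smallest p there, and both had anti-GAA libraries below both controls, as for 16.9% of all tested genes. Without control ASO replicate 2 the medians were −0.04 for the other HSF1 targets, −0.05 for the mitochondrial genes, −0.0020 for CCT and 0.04 for the HSP70 and small heat shock genes, while in the replicate 1 libraries alone they were 0.04, 0.04, 0.02 and −0.06. The median of the HSP70 cochaperones was −0.10 and that of the factors 0.05 without anti-GAA ASO replicate 1.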

How the data were processed

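The values the authors deposited are raw read counts per gene for the 4 libraries, whole numbers without normalization. Per the methods, reads were trimmed, aligned with STAR to hg19 and counted with featureCounts on Ensembl genes. The Ensembl release, strand setting and handling of reads that match several genes are not given in the sources used here. The labels name a total RNA kit and the methods a stranded mRNA kit.

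The analysis used edgeR 4.0.16 in R 4.3.3, with DESeq2 1.42.0 and mgcv 1.9.3 for alternatives, and Python 3.11.15. filterByExpr kept 15116 genes, which were TMM-scaled and entered edgeR's quasi-likelihood test with the ASO as the only term, with Benjamini-Hochberg adjustment over all tested genes and a threshold of 0.05. Pair differences are log2 CPM with a prior count of 2. Symbols matched 52181 of 63677 identifiers through GENCODE 44.

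The members and lists were chosen with earlier results of these data known. Besides the members, the genes named are HSF1, HSF2, HSP90B1, for each list the 2 with the smallest p and any past the threshold with or without a replicate block, genes that overlap members, and the 3 most like HSPB1. HSPA6 was named after its values were seen. Library totals and the total counts of low genes such as HSPA1A limit precision. Alternatives were other scalings, filters, a replicate block, length and GC offsets, and leaving out each library.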

Additional observations from a re-analysis of the deposited data

How the results depend on the processing

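None of the 10 members passed an adjusted p of 0.05 in any of the 13 alternatives. Of their 130 fold changes under alternatives, 115 kept their direction and 15 reversed. The labels share replicate numbers without saying what they mark, and with 2 pairs the deviations of same-numbered libraries correlated at r = 0.564 over 15116 genes. With the replicate block, 207 genes were lower and 51 higher of 15116, against 0 and 0 without it, 5 and 0 with DESeq2, 45 and 13 with DESeq2 and the block, 111 and 5 without a filter and 234 and 99 with length and GC offsets and the block. HSPB1, HSPA1B, DNAJB1 and HSPE1 then had an unadjusted p under 0.05 (0.0287, 0.0103, 0.0244 and 0.0428) and an adjusted p of 0.242, 0.158, 0.226 and 0.282, while over all tested genes 9.70% had such a p below 0 and 6.86% above 0, and SQSTM1 passed at 0.0341 by edgeR, while DESeq2 with the block called 0 of the other HSF1 targets.

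HSPA1A was at 0.062 with the replicate block, 0.033 with DESeq2 and the block, 0.061 with the offsets and the block, and between −0.47 and 0.61 on leaving out a library. HSPA8 was at −0.0061 with scaling to total counts and HSPH1 at 0.039 with length and GC offsets and 0.051 with these and the block. On leaving out a library, HSPA1B ran from −0.089 to 1.25, HSPA8 from −0.26 to 0.52, HSPH1 from −0.30 to 0.26, HSPE1 from −0.057 to 0.76 and BAG3 from −0.17 to 0.058. The members' median ran from −0.072 (without control ASO replicate 2) to 0.57 (without control ASO replicate 1), and that of the factors from 0.053 to 0.16, of other HSF1 targets from −0.041 to 0.23, of HSP70 cochaperones from −0.10 to 0.15, of mitochondrial genes from −0.048 to 0.36, of CCT from −0.0020 to 0.29 and of other HSP70 and small heat shock genes from −0.26 to 0.035. The lone library left for an ASO took its spread from the other ASO.

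With scaling to total counts the medians were 0.078 for the factors, −0.018 for other HSF1 targets, −0.034 for cochaperones and 0.053 for mitochondrial genes. The factors' median was 0.18 with DESeq2 or its size factors, 0.14 without a filter, 0.16 with a filter of 1 CPM, 0.18 with DESeq2 and the block, 0.21 with length and GC offsets and 0.22 with these and the block. For the cochaperones it was 0.13 with the offsets and 0.12 with these and the block. In calls, 1 other HSF1 target was higher with the block and 1 with the offsets and the block, and 1 cochaperone was lower with the offsets and the block. The causes of these shifts were not tested.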

Other observations

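Several other genes of the HSF1 programme were set apart by single libraries or by the replicate number, and were chosen here after their values were seen. AHSA1, which encodes an activator of the HSP90 ATPase, was at 561 and 354 CPM with the anti-GAA ASO and at 437 and 246 CPM with the control ASO, so that, as for DNAJB1, each anti-GAA library was above the control of its number (0.36 and 0.52 on the log2 scale) and both replicate 1 libraries were above those of replicate 2 with the same ASO. SERPINH1, which encodes the collagen chaperone HSP47, was at 82.5 and 43.4 CPM with the anti-GAA ASO and at 112 and 42.3 CPM with the control ASO, and its replicates differed by 0.92 and 1.40.

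HSP90AA1, the stress-inducible cytosolic HSP90 gene, was at 5335 CPM in anti-GAA ASO replicate 1 and at 2249 CPM in anti-GAA ASO replicate 2, with 5256 and 4962 CPM in the controls (log2 fold change −0.43, SE 0.38, adjusted p = 0.996). The constitutive HSP90AB1 was at 2399 and 2790 CPM with the anti-GAA ASO and at 2292 and 2162 CPM with the control ASO (0.22, SE 0.20, adjusted p = 0.996). Its anti-GAA libraries both lay above both controls, as for 15.5% of all tested genes. In anti-GAA ASO replicate 2 HSP90AA1 was thus the lowest and HSP90AB1 the highest of the 4 libraries.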
